A study of Mus musculus with 8 samples.

Results

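The 4 arrays hybridized with RNA from ethanol-treated NS5 neural stem cells, out of 8 arrays in all, were divided by their signal for Fn1, the gene of the matrix protein fibronectin. The Fn1 probe set with the highest signal lay above 1000 on 2 of them, Ethanol and FGF2 replicate 1 and Ethanol and TGF-beta1 replicate 2, called the Fn1-high arrays. It lay below 1000 on the other 2, Ethanol and FGF2 replicate 2 and Ethanol and TGF-beta1 replicate 1, called the Fn1-low arrays. Each side therefore held 1 array of each label, and the division crossed the growth factor labels. Because a measured value made it, signals on these 4 arrays are given array by array as a description, always in the order just stated, with no test between the sides and no mean over a side.

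NS5 is a mouse neural stem cell line, described in the labels as brain cells of stage E11.5. The cells were plated for 24 h with FGF2 and EGF on polyornithine and laminin, were kept for 4 h without growth factors, and then received 1 of 4 treatments for 48 h. These were FGF2, FGF2 with ethanol, TGF-beta1, and TGF-beta1 with ethanol, with 2 arrays each. Ethanol was at 400 mg/dl and each growth factor at a labelled dose of 10 ng per ul. All groups shared the line, the plating in FGF2 and EGF, and the pause without factors. The labels name no clone, passage or pairing of cultures. Nothing in them tells if the 2 arrays of a group came from different cultures, so p-values measure only the spread between these samples.

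TGF-beta1 binds type II and type I receptor kinases that phosphorylate Smad2 and Smad3, which enter the nucleus with Smad4 and switch on feedback and matrix genes. Fibronectin is among the best known of those matrix genes and is bound by integrins at the cell surface. FGF2 acts through receptor tyrosine kinases and the ERK pathway, keeps neural stem cells dividing, and induces its own feedback inhibitors of the Sprouty and Dusp families.

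Fn1 had 2 probe sets, and both divided the ethanol arrays in the same way. The signal of the probe set used was 6828 and 8226 on the Fn1-high arrays and 116 and 124 on the Fn1-low arrays. The arrays nearest to the threshold were thus Ethanol and FGF2 replicate 1 at 6828 and Ethanol and TGF-beta1 replicate 1 at 124, both far from 1000. The other probe set gave 169 and 386 against 60.4 and 9.95. Without ethanol the probe set used gave 120 and 139 in FGF2 but 3015 and 4109 in TGF-beta1. Both replicate 1 arrays with ethanol therefore stood with the growth factor their label does not name, and both replicate 2 arrays stood with the one it does. Every array was kept in its labelled group in all fits, and whether arrays were exchanged was not tested. Fn1 lies on chromosome 1 from 71585473 to 71653280 (GRCm38.p6).

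The deposited values were linear signals with a 2% trimmed mean of 500 on every array. Median signals were 65.0 to 83.3 for the ethanol arrays and 50.6 to 86.5 for the others. Precision is limited throughout by having 2 arrays a group. The ratio of 3′ to 5′ Gapdh signal, a measure of RNA integrity, was 3.33 and 2.06 on the Fn1-high arrays and 3.48 and 1.93 on the Fn1-low arrays. It followed the label, with both Ethanol and FGF2 arrays high, and did not follow Fn1. Of the 10916 genes that passed the signal filter, 1.83% differed at least 2-fold between the 2 Fn1-low arrays, the lowest share of the 28 pairs of arrays, although no probe set had an equal value on both. The share was 9.8% between the 2 Fn1-high arrays, 13.0% between both Ethanol and FGF2 arrays and 6.34% between both Ethanol and TGF-beta1 arrays. It was 13.6% between both replicate 1 ethanol arrays and 7.34% between both replicate 2 ethanol arrays. Over all genes Ethanol and TGF-beta1 replicate 2 thus differed less from each Fn1-low array than from the other Fn1-high array. Without ethanol 1257 genes differed in this way between the FGF2 arrays and 582 between the TGF-beta1 arrays.

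To place the division, genes were first chosen on the 4 arrays without ethanol, which took no part in it. The signal filter and the probe set choice before this step used all 8 arrays, which favoured genes bright on any of them. By limma, a linear model with moderated variances run on log2 signals, 5 of 10916 genes were higher in TGF-beta1 than in FGF2 past an adjusted p of 0.05 (0.0458%), 0 were lower, and 776 had an unadjusted p under 0.05 (7.11%). The 5 were Fn1, Mfap4, Pmepa1, Susd5 and Aldh1a1. Fn1 rose by a log2 fold change of 4.54 ± 0.25 (SE, limma adjusted p = 0.0126), a gene taken up with this difference already known. Calls at this number of arrays were fragile: there were 0 with all 8 arrays in the fit, 0 without a variance trend, 0 without TGF-beta1 replicate 1 or replicate 2, but 285 without FGF2 replicate 1 and 84 without FGF2 replicate 2.

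The other 4 called genes were divided by the ethanol arrays as Fn1 was. Mfap4 encodes a microfibril-associated protein of elastic matrix. Without ethanol the FGF2 arrays had signals of 98.1 and 69.7 and the TGF-beta1 arrays 3659 and 1754 (log2 fold change 4.59 ± 0.39 SE, limma adjusted p = 0.0379). Its signal was 1149 and 2437 on the Fn1-high arrays and 9.20 and 65.2 on the Fn1-low arrays. Both Fn1-low values lay under the FGF2 values, the lower of them under the constant of 23.66 added before taking logs.

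Pmepa1 encodes a membrane protein that binds Smad2 and Smad3 and dampens TGF-beta signalling. Without ethanol the FGF2 arrays had 935 and 548 and the TGF-beta1 arrays 8093 and 7315 (3.38 ± 0.28, limma adjusted p = 0.0379). It was 8198 and 7454 on the Fn1-high arrays, inside or just above the TGF-beta1 values, and 1057 and 1081 on the Fn1-low arrays, just above the FGF2 values. Pmepa1 lies on chromosome 2 from 173224458 to 173276731, and all 3 of its probe sets divided the ethanol arrays alike.

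Susd5, a sushi domain gene on chromosome 9 from 114057354 to 114098733, had signals of 585 and 502 in FGF2 but 3409 and 2886 in TGF-beta1 (2.48 ± 0.21, limma adjusted p = 0.0379). With ethanol it had 1954 and 3937 on the Fn1-high arrays and 169 and 260 on the Fn1-low arrays, so the Fn1-low values lay below both FGF2 arrays. Aldh1a1, a retinaldehyde dehydrogenase that makes retinoic acid, had 609 and 494 in FGF2 but 6742 and 5773 in TGF-beta1 (3.45 ± 0.21, limma adjusted p = 0.0126). It had 2602 and 3228 on the Fn1-high arrays and 1126 and 1048 on the Fn1-low arrays. All 4 ethanol values of Aldh1a1 thus lay between the growth factor groups, with a smaller gap between the sides than for the other called genes.

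**Figure D1:**
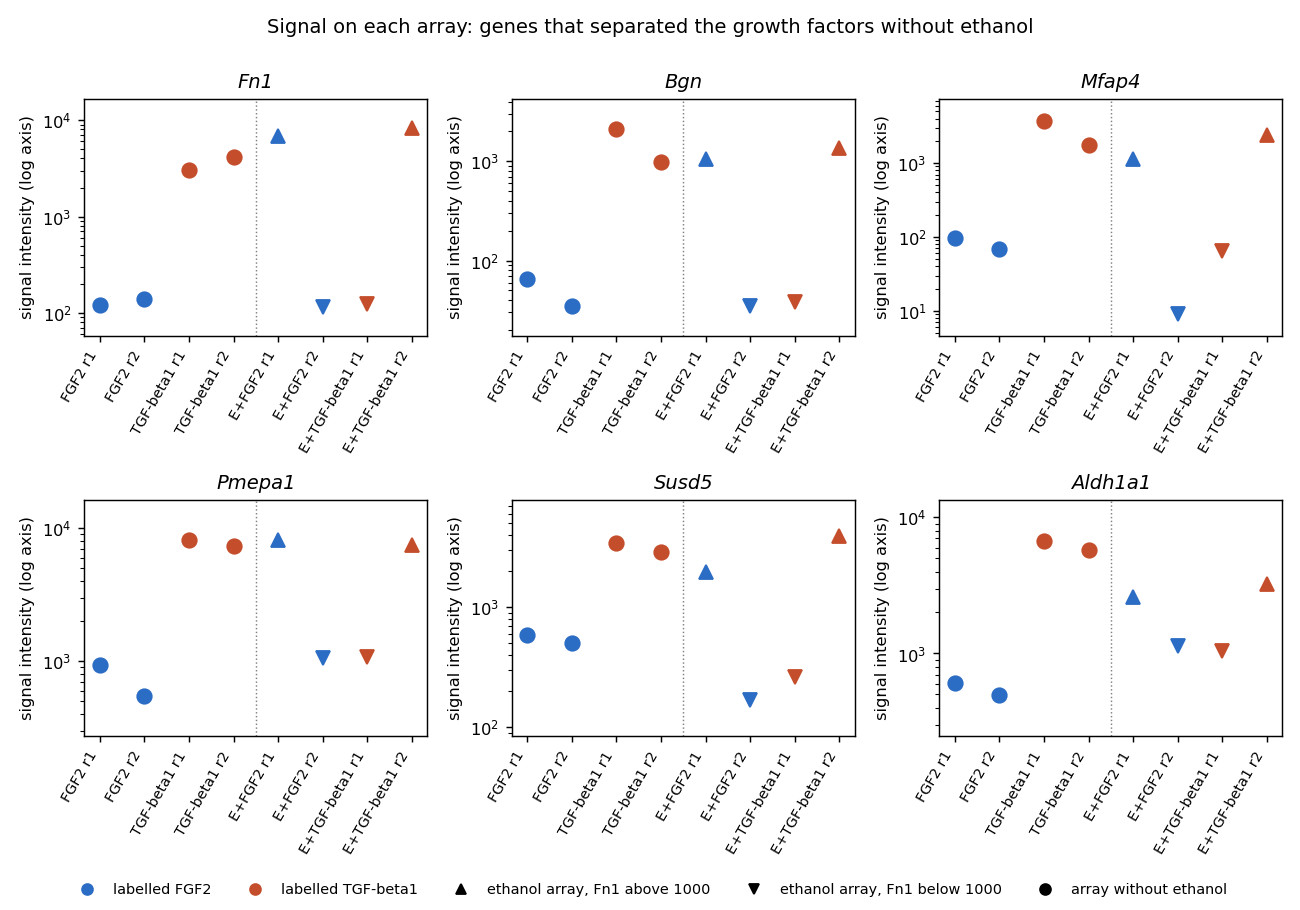
Signal intensity (log axis) of 6 genes on each of the 8 arrays, r1 and r2 being replicates and E the ethanol arrays; blue marks arrays labelled FGF2, red those labelled TGF-beta1, and triangles point up or down for ethanol arrays with Fn1 above or below 1000. For Fn1 the up triangles stand at 6828 and 8226 and the down triangles at 116 and 124, and the other 5 genes show the same order, least apart for Aldh1a1.

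Since few genes could pass a test over 2 arrays against 2, genes were also counted by range: the lowest array of one group had to lie at least 2-fold above the highest array of the other on the log2 scale with the constant. Without ethanol 92 genes were separated with TGF-beta1 higher (0.843% of genes tested) and 24 with FGF2 higher (0.22%). With Fn1 left out, 57 of the 91 remaining TGF-beta1 genes (62.6%) were also at least 2-fold higher by range on the Fn1-high arrays, against 1.97% of all genes tested. The 2 sides did not overlap in that direction for 81 of the 91 (89.0%, all genes 21.2%), and for 1 gene they did not overlap in the opposite direction. Of the 24 genes higher in FGF2, 8 (33.3%) were at least 2-fold higher on the Fn1-low arrays, against 0.458% of all genes, and 17 (70.8%, all genes 20.7%) did not overlap in that direction. None of the 24 was higher on the Fn1-high arrays without overlap.

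Each ethanol array was then placed between the group means without ethanol, at 0 for the FGF2 mean and 1 for the TGF-beta1 mean of a gene on the log2 scale. Over the 91 genes higher in TGF-beta1 the median position was 1.00 on Ethanol and FGF2 replicate 1 and 1.13 on Ethanol and TGF-beta1 replicate 2. It was 0.13 on Ethanol and FGF2 replicate 2 and 0.13 on Ethanol and TGF-beta1 replicate 1. Nearer to TGF-beta1 than to FGF2 were 85.7% and 90.1% of these genes on the Fn1-high arrays and 15.4% and 11.0% on the Fn1-low arrays. Over the 24 genes higher in FGF2 the arrays lay less far apart, with median positions of 0.67 and 0.59 on the Fn1-high arrays and 0.03 and 0.14 on the Fn1-low arrays. For these genes 62.5% and 58.3% lay nearer to TGF-beta1 on the Fn1-high arrays, and 12.5% and 8.33% on the Fn1-low arrays. With no signal filter the TGF-beta1 genes gave 79.6% and 86.7% on the Fn1-high arrays and 20.4% and 18.6% on the Fn1-low arrays. The FGF2 genes then gave 47.8% and 50% on the Fn1-high arrays and 26.1% and 28.3% on the Fn1-low arrays. With TGF-beta1 replicate 2 left out of the choice, the FGF2 genes gave 30.3% and 25.4% on the Fn1-high arrays. The other shares also moved with the arrays that chose the genes: with FGF2 replicate 1 left out of the choice, the TGF-beta1 genes gave 56.1% and 56.1% on the Fn1-high arrays and 33.1% and 30.5% on the Fn1-low arrays.

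**Figure D2:**
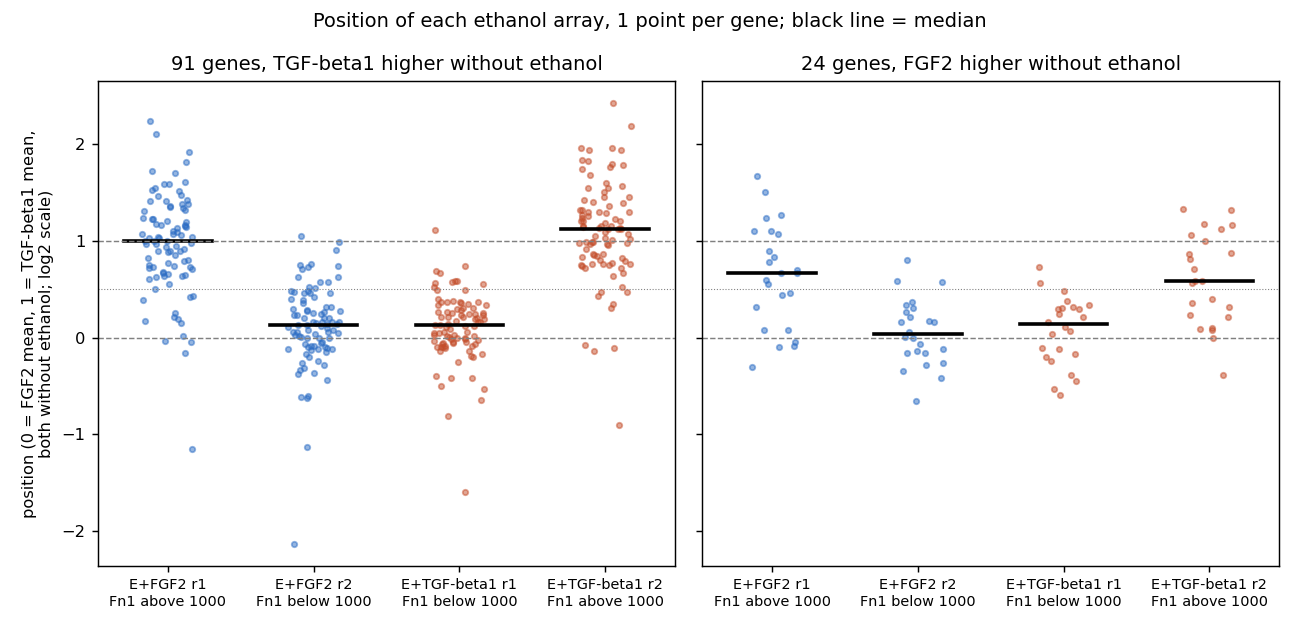
Position of each ethanol array between the FGF2 mean (0) and the TGF-beta1 mean (1) of the arrays without ethanol, 1 point per gene, with the median as a black line; left, 91 genes higher in TGF-beta1, right, 24 genes higher in FGF2. On the left the medians are 1.00, 0.13, 0.13 and 1.13 from left to right.

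Genes were also chosen by the division and read on the arrays without ethanol. The Fn1-high arrays were at least 2-fold higher by range in 215 genes (1.97%) and the Fn1-low arrays in 50 (0.458%), and nothing is read from these counts, since the division rests on the same arrays. On the arrays without ethanol, 203 of the 214 Fn1-high genes other than Fn1 had a log2 fold change above 0 for TGF-beta1 against FGF2 (94.9%, against 52.5% of all genes tested). Of those 214, 120 (56.1%) were higher in TGF-beta1 at an unadjusted limma p under 0.05, against 4.65% of all genes, and 0 were lower. Of the 50 Fn1-low genes, 21 (42.0%) were lower in TGF-beta1 at an unadjusted limma p under 0.05, against 2.46% of all genes, and 5 (10.0%) had a log2 fold change above 0. Genes on an array are not independent of each other, so these shares are descriptions.

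Of the 58 genes at least 2-fold higher by range both in TGF-beta1 without ethanol and on the Fn1-high arrays, 42 had an entry in the RefSeq promoter table (GRCm38.p6), with 53 promoters. Fn1, Pmepa1 and Mfap4 were not among the entries. The 250 bases before each start were searched on both strands for CAGAC, the core of Smad binding elements, for TGANTCA, the element of Jun and Fos dimers (AP-1), which reads the same on both strands, and for GGAATG, the element of TEAD factors. Matches of different motifs shared no bases in these 53 promoters. CAGAC stood in 39.6% of the promoters, 39.9% of those of all genes tested and 42.2% of the 32851 in the table. TGANTCA stood in 17.0% (9 promoters), against 4.18% of those of all genes tested and 6.75% of the table. GGAATG stood in 5.66%, against 10.4% and 12.6%. These are matches of letters in a short window, not sites shown to be bound.

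The 250 bases before the start are shown for 4 of the genes whose promoters hold TGANTCA, chosen because 2 of them, Susd5 and Aldh1a1, passed the test above and the other 2, Adcy7 and Anxa2, were among the genes with the widest gaps. Capitals mark TGANTCA, and all 4 promoters lie on the plus strand, written 5′ to 3′. Susd5 is from chr9:114057104-114057353, with the match starting 225 bases before the start. Aldh1a1 is from chr19:20492333-20492582, with the match 57 bases before it. Adcy7 is from chr8:88288816-88289065, a start that lies inside the annotated span of the gene, with the match 24 bases before it. Anxa2 is from chr9:69453433-69453682, with the match 95 bases before it.
Susd5: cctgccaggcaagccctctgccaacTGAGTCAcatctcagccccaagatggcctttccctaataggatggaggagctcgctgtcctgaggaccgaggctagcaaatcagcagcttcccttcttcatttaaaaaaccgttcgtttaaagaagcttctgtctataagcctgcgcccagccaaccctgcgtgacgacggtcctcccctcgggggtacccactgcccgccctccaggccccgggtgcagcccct
Aldh1a1: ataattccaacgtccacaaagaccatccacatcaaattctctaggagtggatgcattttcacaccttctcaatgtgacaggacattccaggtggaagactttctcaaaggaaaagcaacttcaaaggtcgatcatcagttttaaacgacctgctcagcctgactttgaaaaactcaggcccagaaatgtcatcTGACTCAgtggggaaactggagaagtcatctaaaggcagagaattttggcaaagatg
Adcy7: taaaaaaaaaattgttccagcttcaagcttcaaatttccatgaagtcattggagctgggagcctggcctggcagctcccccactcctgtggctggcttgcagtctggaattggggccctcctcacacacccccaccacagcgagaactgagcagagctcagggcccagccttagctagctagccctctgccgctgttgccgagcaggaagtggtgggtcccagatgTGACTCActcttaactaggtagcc
Anxa2: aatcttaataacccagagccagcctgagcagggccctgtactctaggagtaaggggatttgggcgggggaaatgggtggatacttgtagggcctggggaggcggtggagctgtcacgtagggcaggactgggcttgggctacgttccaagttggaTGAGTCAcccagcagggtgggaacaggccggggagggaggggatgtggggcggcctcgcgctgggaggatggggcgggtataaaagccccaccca

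Adcy7 encodes an adenylyl cyclase, and Anxa2 a calcium-dependent membrane-binding protein of the cell cortex. For Adcy7, FGF2 gave 23.8 and 81.1 and TGF-beta1 693 and 548 without ethanol, with 584 and 727 on the Fn1-high arrays and 48.2 and 47.1 on the Fn1-low arrays. Its groups did not overlap in either setting, and all 3 probe sets divided the ethanol arrays alike. For Anxa2, FGF2 gave 212 and 46.1 and TGF-beta1 898 and 710, and 1574 and 1771 against 83.9 and 89.1 on the ethanol arrays. For Anxa2 only 1 of 3 probe sets divided the ethanol arrays, and the log2 fold change without ethanol was 2.68 ± 0.57 (limma adjusted p = 0.374).

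Ligands, receptors and Smads of the pathway were mostly less than 2-fold apart on the 4 ethanol arrays. Of 18 genes tested, 3 were at least 2-fold higher by range on the Fn1-high arrays and 0 on the Fn1-low arrays (all genes 1.97% and 0.458%), and the list median against the arrays without ethanol was at most 0.11 (log2) on every ethanol array. Fst, the secreted activin antagonist follistatin, had signals of 2110 and 4835 on the Fn1-high arrays and 439 and 395 on the Fn1-low arrays, with 426 and 233 in FGF2 but 2582 and 1943 in TGF-beta1 without ethanol. The ligand gene Tgfb3 had 221 and 243 against 21.0 and 39.3, and the type I receptor gene Acvr1 had 412 and 442 against 160 and 170. The receptor Tgfbr1 went the other way by less than 2-fold (1391 and 1991 against 2756 and 2577), and Smad2 (534 and 494 against 536 and 545) was nearly level. None of the 18 passed limma for TGF-beta1 against FGF2 without ethanol. There 4 did not overlap with TGF-beta1 higher (all genes 20.4%) and 9 with FGF2 higher (all genes 15.8%). Between the sides 5 did not overlap with the Fn1-high side higher (all genes 21.2%) and 7 with the Fn1-low side higher (all genes 20.7%).

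Of 27 targets of TGF-beta signalling tested, 12 were at least 2-fold higher by range on the Fn1-high arrays and 0 on the Fn1-low arrays (all genes 1.97% and 0.458%), and for 23 the sides did not overlap with the Fn1-high side higher (all genes 21.2%). For this and the following lists nothing is read from counts between the sides, since the same arrays made the division. Without ethanol 6 of the 27 were at least 2-fold higher in TGF-beta1 by range, 15 did not overlap in that direction (all genes 20.4%), 2 passed limma (Fn1 and Pmepa1), and the median log2 fold change was 0.67, beside 0.02 over all genes tested. The list holds genes long known to follow this pathway and was written with results of these arrays in view, so it is no independent evidence of the direction. Several members, such as Fn1, Col1a1 and Acta2, also stand in the matrix, contractile or mesenchymal lists below. Acta2 passed the signal filter only through the Fn1-high arrays.

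Ltbp1, which tethers latent TGF-beta in the matrix, had signals of 3514 and 4161 on the Fn1-high arrays and 789 and 1071 on the Fn1-low arrays, beside FGF2 values of 575 and 1085 and TGF-beta1 values of 10260 and 5381. For Ltbp1 1 of 3 probe sets divided the ethanol arrays. Ldlrad4, an inhibitor of Smad2 and Smad3 phosphorylation, had 551 and 731 against 118 and 131, beside FGF2 values of 63.8 and 87.6 and TGF-beta1 values of 428 and 703. Both genes stood apart in both settings with no overlap.

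Spsb1 and the inhibitory Smad gene Smad7 were further examples. Spsb1, a ubiquitin ligase adaptor, had 1990 and 1265 on the Fn1-high arrays and 288 and 236 on the Fn1-low arrays. Smad7 had 330 and 614 against 197 and 240, and the transcriptional repressor genes Skil and Ski had 8320 and 9598 against 5060 and 5367, and 3675 and 2243 against 1404 and 1698. The gaps of these repressors were under 2-fold. Klf10, often induced early by TGF-beta, was also higher on the Fn1-high arrays by under 2-fold, at 10890 and 11990 against 8631 and 7091. Smurf2, a ligase for the receptors, was lower there by under 2-fold, at 1277 and 1162 against 1514 and 1364.

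Extracellular matrix genes were higher on the Fn1-high arrays in 11 of 27 tested by at least 2-fold and lower in 0 (all genes 1.97% and 0.458%), and 4 of the 27 were at least 2-fold higher in TGF-beta1 without ethanol (all genes 0.843%). Bgn, the proteoglycan biglycan on the X chromosome from 73483601 to 73495936, had signals of 1055 and 1366 on the Fn1-high arrays and 35.0 and 38.1 on the Fn1-low arrays, beside FGF2 values of 64.7 and 35.1 and TGF-beta1 values of 2113 and 977. Its 3 probe sets were alike in this, and its log2 fold change without ethanol was 4.34 ± 0.44 (limma adjusted p = 0.0901). The collagen genes Col1a1 and Col11a1 had 432 and 754 against 157 and 128, and 1293 and 2507 against 368 and 378.

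Other matrix genes were divided by the ethanol arrays without standing 2-fold apart in the growth factors. Lamc1, a laminin chain, had 2984 and 3344 against 820 and 1128, beside FGF2 values of 1202 and 985 and TGF-beta1 values of 1185 and 1748. Tnc, the glial matrix protein tenascin C, had 7444 and 4874 against 1556 and 1110, beside FGF2 values of 1327 and 1061 and TGF-beta1 values of 4819 and 1648. Sparc, a collagen-binding glycoprotein, had 36540 and 25320 against 13070 and 12780. The basement membrane collagen genes Col4a1 and Col4a2 overlapped between the sides (781 and 761 against 813 and 695 for Col4a1), and the brain proteoglycan gene Bcan was lower on the Fn1-high arrays (4062 and 3637 against 6897 and 5050).

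Among the 10 integrin genes tested, 3 were at least 2-fold higher on the Fn1-high arrays (all genes 1.97%). Itga5, the fibronectin receptor chain, had 986 and 422 against 128 and 82.8, beside FGF2 values of 175 and 114 and TGF-beta1 values of 399 and 334. Itga9 had 339 and 316 against 48.9 and 67.3, and Itga1, a collagen receptor chain, had 491 and 677 against 112 and 214. Itgb1, the partner of all 3, was higher on the Fn1-high arrays by under 2-fold, at 1958 and 1657 against 1214 and 1529.

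Contractile and actin-binding genes did not overlap between the sides in 14 of 17 tested, all with the Fn1-high side higher (all genes 21.2%), and 5 were at least 2-fold apart (all genes 1.97%). Acta2, smooth muscle actin, had signals of 223 and 751 against 29.3 and 10.5, beside FGF2 values of 11.0 and 44.0 and TGF-beta1 values of 53.0 and 88.4. Tagln, the actin-binding protein transgelin, had 210 and 449 against 15.9 and 26.8, beside FGF2 values of 19.9 and 57.7 and TGF-beta1 values of 27.5 and 108. Both Fn1-high arrays exceeded both TGF-beta1 arrays for these genes, 1 of 3 Acta2 probe sets being divided in this way. Acta2 and Tagln passed the signal filter only through the Fn1-high arrays, so their place in the counts above was favoured by the filter. Pdlim7, an actin-linked scaffold, had 1209 and 729 against 224 and 270 and was also at least 2-fold higher in TGF-beta1 without ethanol (598 and 646 against 202 and 127).

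Of 15 genes that respond to the mechanosensitive factors YAP and TEAD, 4 were at least 2-fold higher on the Fn1-high arrays (all genes 1.97%). Ccn1, a secreted matricellular protein, had 15010 and 9529 against 2697 and 1008, beside FGF2 values of 867 and 283 and TGF-beta1 values of 4241 and 5126. Wwc1, an upstream regulator of the Hippo kinases, had 12530 and 8311 against 2072 and 1796, although the growth factors lay close together without ethanol (2709 and 3258 in FGF2, 3855 and 3479 in TGF-beta1). Wwtr1, the YAP paralog, had 8276 and 8467 against 3083 and 3121, whereas Yap1 overlapped (2124 and 1615 against 1507 and 2118).

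Of 16 feedback targets of FGF and ERK tested, 0 were 2-fold apart in either direction (all genes 1.97% and 0.458%). For 8 the sides did not overlap with the Fn1-low side higher (all genes 20.7%) and for 3 with the Fn1-high side higher (all genes 21.2%). Without ethanol 9 of the 16 did not overlap with FGF2 higher, against 15.8% of all genes tested. Dusp6, an ERK phosphatase, had 1605 and 1969 on the Fn1-high arrays and 4716 and 2945 on the Fn1-low arrays, beside FGF2 values of 3492 and 5719 and TGF-beta1 values of 2488 and 2156. Etv5, an ETS factor induced by FGF, had 3006 and 3190 against 4054 and 4030, beside FGF2 values of 6742 and 6832 and TGF-beta1 values of 3553 and 2291, so all 4 ethanol arrays lay below both FGF2 arrays. The list median against the arrays without ethanol was -0.35 and -0.10 on the Fn1-high arrays and 0.51 and 0.05 on the Fn1-low arrays.

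Genes higher in FGF2 without ethanol fell into those that followed the division and those that did not. Slc6a11, a transporter that takes up the inhibitory transmitter GABA, followed it: its signal was 274 and 242 on the Fn1-high arrays and 1506 and 2099 on the Fn1-low arrays, beside FGF2 values of 977 and 1747 and TGF-beta1 values of 390 and 358. Mcc had 357 and 601 against 1639 and 1743, beside FGF2 values of 1901 and 2059 and TGF-beta1 values of 755 and 547. Fgf1, a ligand of the FGF receptors, had 318 and 254 against 606 and 677.

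Ntn4, Neurod4 and Dtna did not follow it. Ntn4, a secreted netrin, had 1532 and 1499 on the Fn1-high arrays and 1561 and 1618 on the Fn1-low arrays, all within the FGF2 values of 2098 and 1361 and far from the TGF-beta1 values of 441 and 457. Neurod4, a proneural transcription factor, had 243 and 423 against 395 and 311, beside FGF2 values of 207 and 248 and TGF-beta1 values of 10.4 and 69.5. Dtna, a member of the dystrophin complex, had 332 and 849 against 522 and 611, beside FGF2 values of 789 and 900 and TGF-beta1 values of 176 and 167, and 1 of its 7 probe sets was divided, in the opposite direction. On all 4 ethanol arrays these 3 genes lay above both TGF-beta1 arrays. None of the genes named here as higher in FGF2 passed limma (adjusted p from 0.135 to 0.478).

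Some of the 12 genes with the widest gaps between the sides lay closer together in the growth factors. Hbegf, a heparin-binding ligand of the EGF receptor, had 2673 and 2469 on the Fn1-high arrays and 193 and 224 on the Fn1-low arrays, beside FGF2 values of 88.1 and 257 and TGF-beta1 values of 415 and 543. Cd109, a surface protein that binds TGF-beta, had 5391 and 3296 against 320 and 347, beside FGF2 values of 1771 and 329 and TGF-beta1 values of 2120 and 2856. Lpar1, a receptor for lysophosphatidic acid, had 2126 and 1960 against 40.6 and 134, beside FGF2 values of 115 and 94.5 and TGF-beta1 values of 512 and 658. For Hbegf and Lpar1 the Fn1-high arrays thus lay well above the TGF-beta1 arrays without ethanol.

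Others combined a gap in the growth factors with a wider one between the sides. Ccn4, a matricellular protein of the Wnt pathway, had 939 and 1276 on the Fn1-high arrays and 16.1 and 79.1 on the Fn1-low arrays, beside FGF2 values of 52.4 and 103 and TGF-beta1 values of 498 and 330. Fmod, a proteoglycan that binds collagen and TGF-beta, had 526 and 723 against 36.7 and 35.3, beside FGF2 values of 8.12 and 64.5 and TGF-beta1 values of 136 and 245. Padi2, an enzyme that converts arginine to citrulline in proteins, had 5478 and 4945 against 376 and 210, beside FGF2 values of 741 and 134 and TGF-beta1 values of 4954 and 2448. Ifi202b, an interferon-induced gene, overlapped in the growth factors (10.2 and 137 in FGF2, 136 and 223 in TGF-beta1) and had 914 and 818 against 50.4 and 45.8 on the ethanol arrays.

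On the other side the widest gap was that of Grm5, a metabotropic glutamate receptor, with 171 and 173 on the Fn1-high arrays and 2117 and 2536 on the Fn1-low arrays. Without ethanol Grm5 had 1888 and 4770 in FGF2 but 1284 and 792 in TGF-beta1 (log2 fold change -1.55 ± 0.46, limma adjusted p = 0.536). Timp4, an inhibitor of matrix metalloproteases, had 1006 and 571 against 6751 and 5279 although its growth factor groups overlapped (2185 and 8694 in FGF2, 5034 and 2429 in TGF-beta1). Maf, Txnip and Anks1b likewise overlapped without ethanol, Maf with 303 and 449 against 2097 and 2231 on the ethanol arrays.

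Among Id and Hes genes, targets of BMP and Notch signalling, 3 of 9 were at least 2-fold lower on the Fn1-high arrays (all genes 0.458%). Hey2 had 573 and 723 against 2644 and 2490, Hes5 had 160 and 77.3 against 518 and 398, and Id4 had 148 and 88.1 against 390 and 515. Their growth factor groups overlapped without ethanol. Id1 went the other way by under 2-fold, at 765 and 420 against 275 and 235. Without ethanol 5 of the 9 genes did not overlap with TGF-beta1 higher (all genes 20.4%) and 1 with FGF2 higher (all genes 15.8%). The list median was -0.10 and -0.18 (log2) on the Fn1-high arrays and 0.60 and 0.12 on the Fn1-low arrays. Beside these, the FGF2 arrays had -0.13 and -0.24 and the TGF-beta1 arrays 0.35 and 0.03.

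**Figure D3:**
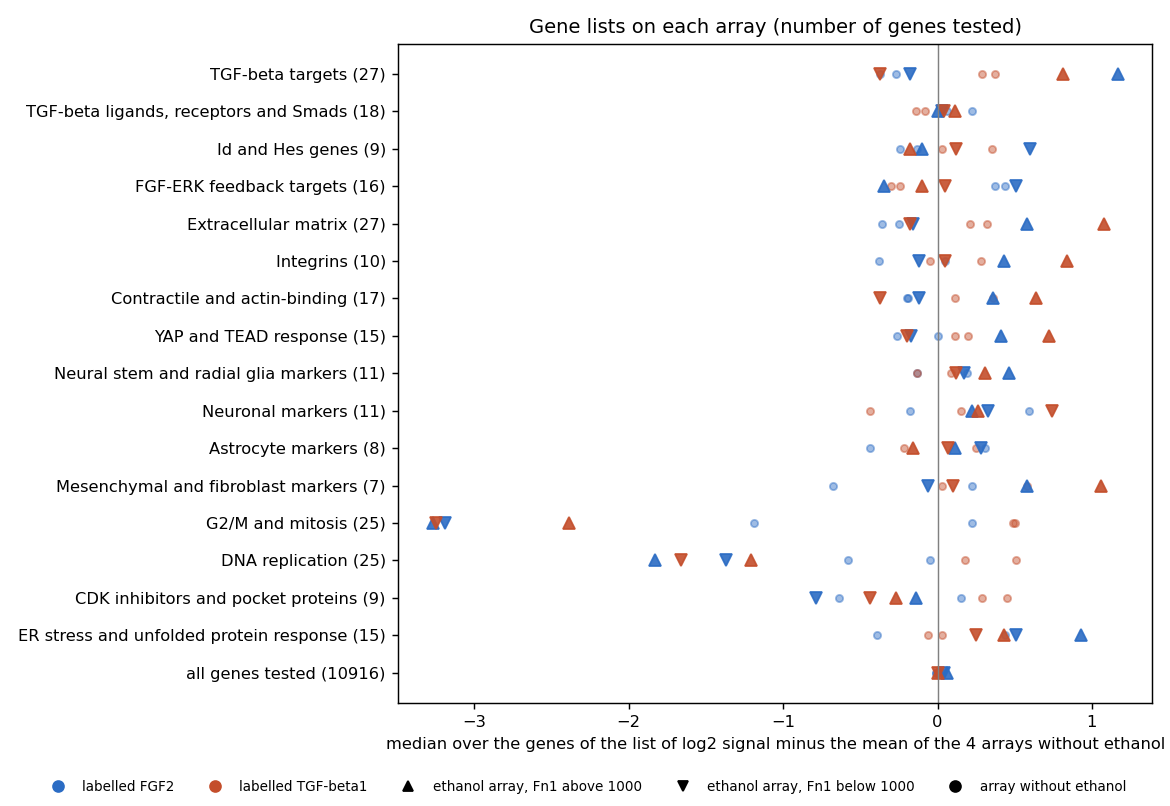
For each gene list, the median over its genes of the log2 signal minus the mean of the 4 arrays without ethanol, 1 symbol per array; small circles are arrays without ethanol, triangles ethanol arrays with Fn1 above (up) or below (down) 1000, colours the labels. The TGF-beta targets lie at 1.17 and 0.81 on the Fn1-high and -0.18 and -0.37 on the Fn1-low arrays, while the G2/M list is low on all 4 ethanol arrays.

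Sox2, Vim and Nes, used as markers of neural stem cells and radial glia, had signal on every ethanol array, which alone does not identify the cells. Sox2, a stem cell transcription factor, had 6018 and 9453 on the Fn1-high arrays and 12160 and 10960 on the Fn1-low arrays. Vim, an intermediate filament of radial glia, had 37740 and 28750 against 24450 and 23010, and Nes, the filament nestin, 969 and 1254 against 587 and 601. Of 12 stem and radial glia markers 11 passed the signal filter (not Prom1), 0 were at least 2-fold higher on the Fn1-high arrays and 1 on the Fn1-low arrays (Hes5, given above), beside 1.97% and 0.458% of all genes, so the 0 is near the share of all genes.

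Gfap, the astrocyte filament, was the only 1 of 8 astrocyte markers at least 2-fold higher on the Fn1-high arrays (all genes 1.97%), with 6058 and 8284 against 1281 and 668, beside FGF2 values of 534 and 61.9 and TGF-beta1 values of 2102 and 2461. Aqp4 (9609 and 13810 against 11660 and 12020) and Aldoc (15520 and 13260 against 15330 and 15310) overlapped, and Slc1a2, a glutamate transporter, was lower (430 and 511 against 1496 and 2166). In bulk RNA fewer cells of a type and less RNA per cell cannot be told apart.

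Of 12 mesenchymal and fibroblast markers 7 passed the filter. Acta2, Tagln and Col1a1 were at least 2-fold higher on the Fn1-high arrays (all genes 1.97%). Acta2 and Tagln reached the filter only through the Fn1-high arrays, so their place in this count was favoured by the filter and supports nothing. The summed signal of all 12 was 2717 and 3692 on the Fn1-high arrays and 2084 and 1711 on the Fn1-low arrays, beside 1626 to 2667 without ethanol. The markers Lum, Pdgfrb, Thy1, Col1a2 and Cnn1 were below the filter. Col3a1, Dcn and Prrx1 passed it and, like Twist1 (962 and 1034 against 1320 and 972), overlapped between the sides. Against the arrays without ethanol the list median (log2) was 0.58 and 1.06 on the Fn1-high, -0.06 and 0.1 on the Fn1-low arrays. The part of such cells in the result was not tested. Of 8 endothelial markers 0 passed the filter, of 8 microglial and macrophage markers 1 did (Cd68, 97.7 and 81.3 against 85.7 and 69.9), and their summed signals stayed at or below 381 on every array. Of 11 neuronal markers that passed, 0 were 2-fold apart between the sides, near the share of all genes (1.97% and 0.458%).

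The same arrays were then compared by their labels. By limma, TGF-beta1 against FGF2 with ethanol gave 0 of 10916 genes (smallest adjusted p = 0.984, 205 genes or 1.88% at an unadjusted p under 0.05), and by range 25 genes were at least 2-fold higher in Ethanol and TGF-beta1 (0.229%) and 3 in Ethanol and FGF2 (0.0275%). Without both replicate 1 arrays of the ethanol groups in a fit over the other 6, 2 genes passed, Fn1 (log2 fold change 5.88 ± 0.35, limma adjusted p = 0.021) and Susd5 (4.36 ± 0.30, limma adjusted p = 0.0263). In that fit each ethanol group is a lone array assumed to vary like the groups without ethanol, and the arrays were left out for their Fn1 signal. It therefore rests on the values that made the division, and neither Fn1 nor Susd5 in it is a finding. The difference of the labelled contrast with and without ethanol gave 0 genes past limma (smallest adjusted p = 0.831, 484 or 4.43% at an unadjusted p under 0.05).

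The 2 labelled replicates with ethanol ran in opposite directions. Ethanol and TGF-beta1 replicate 1 lay below Ethanol and FGF2 replicate 1 for 84 of the 91 genes that were higher in TGF-beta1 without ethanol, with a median difference of -1.68 (log2). Ethanol and TGF-beta1 replicate 2 lay above Ethanol and FGF2 replicate 2 for 86 of the 91, with a median of 1.81. For the 24 genes higher in FGF2 the medians were 0.93 and -0.83, and over all genes tested they were -0.06 and -0.04. Across the 10916 genes the difference with ethanol correlated with the mean difference without it at r = -0.42 for replicate 1 and r = 0.42 for replicate 2. Against each replicate without ethanol, r was -0.38 and -0.33 for replicate 1 and 0.37 and 0.33 for replicate 2. Both replicates without ethanol gave r = 0.37 with each other. Spearman correlations with the mean were -0.36 for replicate 1 and 0.24 for replicate 2, beside 0.29 between both replicates without ethanol. These are correlations across genes of the same arrays, which are not independent replicates.

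**Figure D4:**
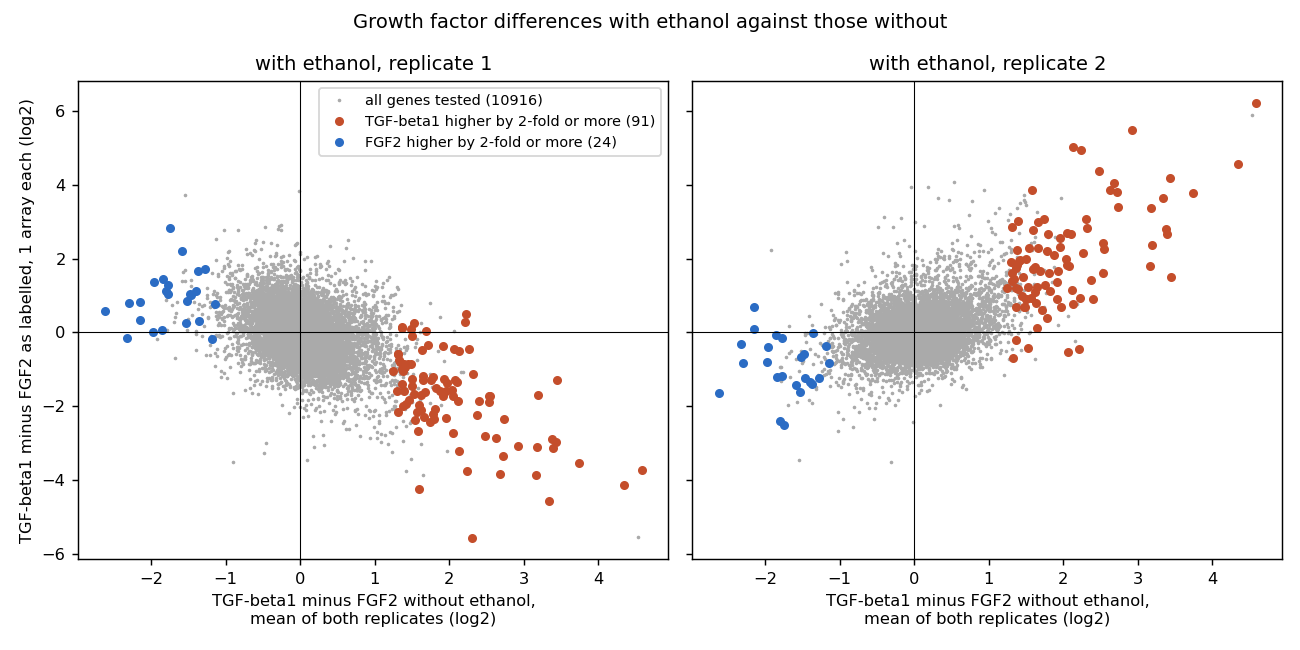
Each point is 1 of 10916 genes; the x axis is the mean log2 difference of TGF-beta1 minus FGF2 without ethanol, the y axis the labelled difference between 1 ethanol array of each growth factor, replicate 1 on the left and replicate 2 on the right. The 91 genes higher in TGF-beta1 (red) lie mostly below 0 on the left (84 genes) and above 0 on the right (86 genes).

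Within a side the arrays still differed. Of the 12 genes in which Ethanol and FGF2 replicate 1 most exceeded Ethanol and TGF-beta1 replicate 2, the other Fn1-high array, 4 picked by hand are given. Srxn1, which reduces oxidized peroxiredoxin, had 3735 against 955, and Atf5 had 1172 against 308. Ddit3, the stress factor CHOP, had 766 against 201, and the mitochondrial folate enzyme gene Mthfd2 had 1996 against 500. The other 6 arrays had 151 to 628 for Srxn1 and 172 to 338 for Ddit3. That array also had the highest median of the ER stress list against the arrays without ethanol, 0.93, beside 0.25 to 0.51 on the other ethanol arrays. Atf5, Ddit3 and Mthfd2 were therefore high on 1 array, not on a side, while Srxn1 was second highest on the other Fn1-high array.

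On the Fn1-low side Ethanol and FGF2 replicate 2 exceeded Ethanol and TGF-beta1 replicate 1 in Egr3, Egr2, Fosb and Ier2, each known as an early response gene and each among the 12 largest differences in that direction. Egr3 had 1338 against 204, Egr2 had 3946 against 653, Fosb had 318 against 83.2 and Ier2 had 822 against 239. On the Fn1-high arrays Egr3 had 997 and 990 and Egr2 2857 and 2033, so that 3 ethanol arrays were high and Ethanol and TGF-beta1 replicate 1 was the lowest of the 4. Without ethanol Egr3 had 108 and 46.4 in FGF2 but 92.0 and 132 in TGF-beta1.

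Some dim genes followed the label within both sides. The uncharacterized gene 1700019M22Rik had 13.2 on Ethanol and FGF2 replicate 1 and 23.0 on replicate 2, against 246 and 312 on Ethanol and TGF-beta1 replicates 1 and 2. Prol1 had 35.9 and 17.9 against 204 and 334. Without ethanol the same genes differed between replicates, 1700019M22Rik with FGF2 values of 37.3 and 392 and TGF-beta1 values of 55.4 and 192. Among the ethanol arrays both genes were low where the Gapdh 3′ to 5′ ratios given above were high, on both Ethanol and FGF2 arrays. Without ethanol 1700019M22Rik ran the other way. It was higher on the replicate 2 arrays, with ratios of 2.2 and 2.2, than on the replicate 1 arrays, with 1.64 and 1.7. The part of RNA integrity in these genes was not tested.

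**Figure D5:**
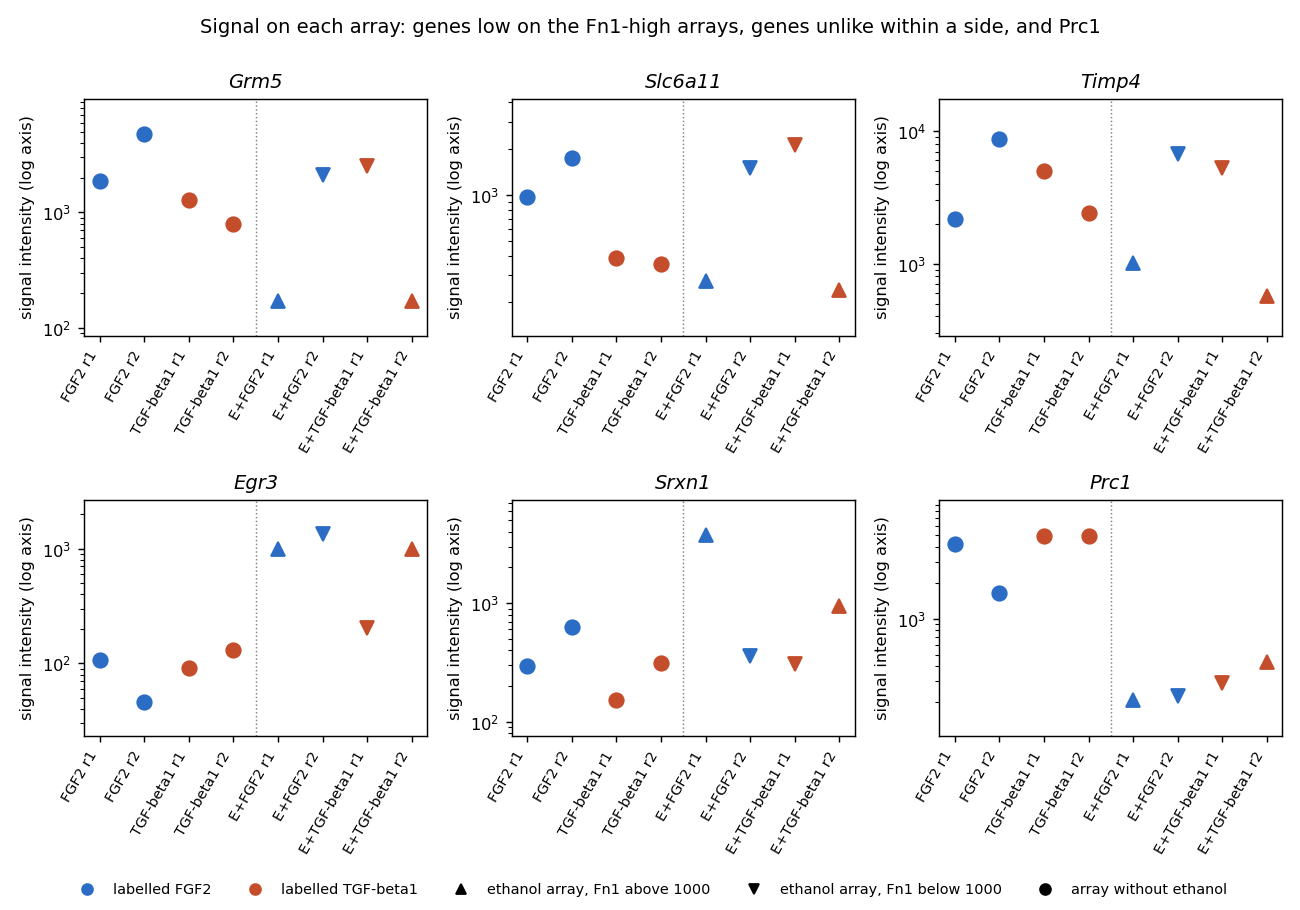
Signal intensity (log axis) of 6 further genes on each array, with symbols and colours as in the plot of TGF-beta1 genes. Grm5, Slc6a11 and Timp4 are low on both Fn1-high arrays (171 and 173 for Grm5); Egr3 is lowest among ethanol arrays on Ethanol and TGF-beta1 replicate 1 (204), Srxn1 is high on Ethanol and FGF2 replicate 1 (3735), and Prc1 is low on all 4 ethanol arrays.

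What the 4 ethanol arrays had in common, on both sides of the division, was a low level of cell division genes. Against the mean of the arrays without ethanol, the median of 25 G2/M and mitosis genes was -3.27 and -2.39 (log2) on the Fn1-high arrays and -3.19 and -3.25 on the Fn1-low arrays, so Ethanol and TGF-beta1 replicate 2 was the least low. Averaged over both growth factors, 197 of 10916 genes fell with ethanol (1.8%) and 20 rose (0.183%) by limma at an adjusted p under 0.05, and 23 of the 25 G2/M genes and 19 of 25 DNA replication genes were among the falls. Prc1, a crosslinker of spindle microtubules, had 209 and 433 on the Fn1-high arrays and 228 and 293 on the Fn1-low arrays, beside FGF2 values of 4205 and 1646 and TGF-beta1 values of 4936 and 4969 (log2 fold change -3.58 ± 0.28, limma adjusted p = 0.00247). By range 16 of the G2/M genes were at least 2-fold lower on all 4 ethanol arrays than on all 4 without, against 0.577% of all genes, while 0.00916% were higher. None of these 50 genes stood 2-fold apart between the sides, near the share of all genes (1.97% and 0.458%). For 7 of the 25 G2/M genes and 5 of the 25 DNA replication genes the Fn1-high side was higher without overlap (all genes 21.2%). The Fn1-low side was higher without overlap for 0 and 1 of them (all genes 20.7%). For Prc1 all 4 ethanol arrays lay below all 4 without.

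In that average 0 of the 27 TGF-beta targets passed, near the share of all genes (1.8% lower and 0.183% higher), and Fn1 had 0.50 ± 1.36 (limma adjusted p = 0.935). Without both replicate 1 arrays of the ethanol groups the average gave 0 genes by limma (smallest adjusted p = 0.059, 1139 at an unadjusted p under 0.05), and the count was 101 without TGF-beta1 replicate 1 and 128 without Ethanol and TGF-beta1 replicate 1.

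Inhibitors of cyclin-dependent kinases were not uniformly placed. Cdkn2b, an inhibitor that TGF-beta induces, had 585 and 802 on the Fn1-high arrays and 291 and 201 on the Fn1-low arrays, beside FGF2 values of 137 and 205 and TGF-beta1 values of 422 and 375. Cdkn1a had 3506 and 1953 against 1352 and 1174, and Cdkn1b 2161 and 3904 against 4911 and 4703. Of 9 such genes tested 0 were 2-fold apart between the sides, near the share of all genes (1.97% and 0.458%), and the pocket protein gene Rbl1, at 147 and 224 against 260 and 240, was the only 1 that fell with ethanol in the average (-2.06 log2, limma adjusted p = 0.00457).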

How the data were processed

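Total RNA of 8 samples was labelled as biotin cRNA by a 1-cycle Affymetrix protocol, per the labels' protocols. The authors' deposited file gives a linear signal intensity for each probe set, made with MAS5 and GCOS per the submitters' processing notes, with versions not given in the sources used here. Of 45101 probe sets, 64 controls, 932 with several gene symbols in GEO's platform annotation and 9211 with none were left out, which gave 18193 genes. Of these symbols 18031 had an entry in the RefSeq gene table (GRCm38.p6). A gene was represented by its probe set of highest mean log2 value over all 8 arrays, and probe sets that disagreed are named. A constant of 23.66, the 25th percentile of the signals, was added before log2. The 10916 genes whose mean over all 8 arrays reached the 40th percentile (6.40) were tested. Fold changes understate the change of genes near the constant.

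The tests used limma 3.58.1 under R 4.3.3 (lmFit, eBayes with trend, two-sided, Benjamini-Hochberg over all genes, threshold 0.05). SE are moderated standard errors. TGF-beta1 against FGF2 was fitted on the 4 arrays without ethanol (2 residual and 4.265 prior degrees of freedom) and on the 4 with ethanol, and ethanol against none on all 8. The script was tested on simulated data. An exact permutation test of 2 arrays against 2 cannot go below p = 0.333. Counts by range have no test.

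Named are Fn1, the 12 genes in each direction with the widest gap in range without ethanol and between the sides (signal at least 100 on both higher arrays), the 12 with the largest difference within each side, and members of 20 hand-written gene lists. The members, lists and tests were chosen with earlier results of these data known. Alternatives covered the constant, filter, probe set choice, quantile normalization, trend, replicate block, gap size and left-out arrays. The main fits did not pair samples by replicate number, and whether equal numbers mark shared cultures was not tested. Scanner files and detection calls were not used here.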

Additional observations from a re-analysis of the deposited data

Results flagged for a closer look

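For 9 named genes the growth factor groups did not overlap without ethanol and did not overlap in the opposite direction with ethanol, as labelled. Among all genes tested this held for 761 of 10916, and among named genes for 9 of 315. None passed the limma test of the difference (smallest adjusted p = 0.831). The difference, TGF-beta1 minus FGF2 with ethanol less the same without, was 2.91 (log2) for Dtna, a dystrophin complex gene, and 0.40 for Tead1, the partner of YAP. It was -2.67 for the stretch-activated channel Piezo1, -1.42 for the matrix gene Fbln1, -1.39 for Hes6 and -1.02 for Hey1. It was -1.25 for Fen1, -1.12 for Rfc2 and -0.88 for Mcm7, genes of DNA replication.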

How the results depend on the processing

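With 2 arrays a group, the counts depended on the arrays and settings. For TGF-beta1 against FGF2 without ethanol, the 5 limma calls became 0 with all 8 arrays, 0 without trend, 90 with the replicate block and 0 to 285 with 1 array left out. The leave-one-out fits within the 4 arrays were added after seeing the data and gave 285 without FGF2 replicate 1, 84 without FGF2 replicate 2 and 0 without either TGF-beta1 array. As labelled with ethanol, the 0 calls stayed 0 with the replicate block and with 1 array left out, and became 2 without both arrays that stood with the other growth factor. Same-numbered samples deviated together at r = 0.47 between FGF2 and TGF-beta1. Without ethanol both replicate 1 arrays had median signals of 50.7 and 50.6, and both replicate 2 arrays 86.5 and 80.7. Between the ethanol groups the value was -0.44. There the Fn1 division runs across the numbers, so -0.44 cannot show if the numbers mark anything. Whether equal numbers mark shared cultures was not tested. A block on the crossed pairing, added after seeing the data, gave 27 calls. Its blocks are the Fn1-high and the Fn1-low arrays, so it rests on the values that made the division and supports nothing. For ethanol against none, 217 calls became 119 with a filter at the 60th percentile and 179 with the replicate block. They became 0 without both replicate 1 arrays of the ethanol groups and 101 to 233 with 1 array left out. Fits with arrays left out hold a lone array in a group, so these counts are fragile.

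By range, the 92 genes higher in TGF-beta1 became 47 with the stricter filter, 265 at 1.5-fold and 17 at 4-fold. The 24 higher in FGF2 became 14 with a constant of 64, 46 with no filter, 13 with the stricter filter, 13 with the mean of all probe sets, 107 at 1.5-fold and 1 at 4-fold. The 215 higher on the Fn1-high arrays became 105, 449 and 54 with the stricter filter, at 1.5-fold and at 4-fold, and the 50 higher on the Fn1-low arrays became 78 with no filter, 33 with the mean of probe sets, 202 at 1.5-fold and 4 at 4-fold. The causes were not tested beyond what each setting does to the number of genes.

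The share of TGF-beta1 genes nearer to TGF-beta1 was 75.4%, 24.2% and 78.4% at 1.5-fold on Ethanol and FGF2 replicates 1 and 2 and Ethanol and TGF-beta1 replicate 2, and 95.7% on the last with the stricter filter. At 4-fold it was 100%, 6.25%, 0.0% and 100% on Ethanol and FGF2 replicates 1 and 2 and Ethanol and TGF-beta1 replicates 1 and 2. With 1 array left out of the choice these shares ranged from 56.1% to 82.1%, 12.8% to 44.8%, 11.2% to 39.5% and 56.1% to 89.7%. For the FGF2 genes the share on Ethanol and TGF-beta1 replicate 1 was 28.3% with no filter and 0.0% with the mean of probe sets, and the 1 gene left at 4-fold gave 100%, 0.0%, 0.0% and 0.0%. With 1 array left out the ranges were 30.3% to 74.7%, 4.92% to 39.3%, 5.74% to 33.9% and 25.4% to 74.7%. Without TGF-beta1 replicate 2 the share of FGF2 genes nearer to TGF-beta1 was 30.3% on Ethanol and FGF2 replicate 1 and 25.4% on Ethanol and TGF-beta1 replicate 2, where it had been 62.5% and 58.3%. Under each setting a count was called the same within 1.5-fold of its main value, and a share within the 95% binomial interval of its main value. By these rules 120 values stayed the same, 28 shares moved out of the interval, 26 counts became weaker and 11 stronger. The interval treats genes as independent, which they are not.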
